A study of Homo sapiens with 9 samples.

Results

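hsa-miR-18a-5p, hsa-miR-18b-5p, hsa-miR-19a-3p and hsa-miR-19b-3p make up 2 seed families encoded in the miR-17-92 transcript and in its paralogue on chromosome X. They were taken by name from the count table, as 4 of 2652 mature miRNA names, and they fill 5 of its 2883 locus rows because hsa-miR-19b-3p has a row on chromosome 13 and another on chromosome X. To ask which miRNAs the 3'UTR of PD-L1 (gene CD274) retains, the study used miTRAP, in which a bait RNA with MS2 loops is held on a resin, incubated with cell lysate and eluted with whatever it bound. The lysate came from ES-2, an established ovarian cancer cell line that was wild type and untreated in every library. The 9 small RNA libraries comprised 3 of the lysate itself (input), 3 of RNA retained by a bait with MS2 loops and no 3'UTR (MS2 control) and 3 of RNA retained by the 3'UTR bait (PD-L1 3'UTR). All libraries came from 1 cell line and the baits were supplied in different amounts, so bait sequence and bait amount cannot be told apart. The study's methods describe its experiments as biological replicates in general, but the labels do not say whether these libraries came from separate cultures, and p-values measure only the spread between them.

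A miRNA guides Argonaute to transcripts that pair with its seed, bases 2 to 8 from the 5′ end, and miRNAs with one seed share most predicted targets. The miR-17-92 transcript on chromosome 13, an oncogenic cluster that MYC activates, yields miR-17, miR-18a, miR-19a, miR-20a, miR-19b and miR-92a. The chromosome X paralogue, miR-106a-363, yields miR-18b and another copy of miR-19b. miR-19 is known to carry much of the oncogenic activity of the cluster, whereas miR-18 is known as a repressor of CTGF and of the oestrogen receptor.

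The mature sequences are shown because the members fall into pairs that differ by a single base, and because the miR-18 seed is close to that of miR-17. Capitals mark the seed, and sequences and coordinates are those of RefSeq on GRCh38.p14. On the plus strand of chromosome 13 lie hsa-miR-17-5p at chr13:91350618-91350640, hsa-miR-18a-5p at chr13:91350756-91350778, hsa-miR-19a-3p at chr13:91350939-91350961 and a copy of hsa-miR-19b-3p at chr13:91351245-91351267. On the minus strand of chromosome X lie hsa-miR-18b-5p at chrX:134170084-134170106 and the other copy of hsa-miR-19b-3p at chrX:134169683-134169705.
hsa-miR-18a-5p: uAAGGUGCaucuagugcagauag
hsa-miR-18b-5p: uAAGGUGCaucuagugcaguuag
hsa-miR-19a-3p: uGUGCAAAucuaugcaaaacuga
hsa-miR-19b-3p: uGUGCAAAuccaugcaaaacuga
hsa-miR-17-5p: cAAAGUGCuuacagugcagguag
Counted from 1 at the 5′ end, the change from hsa-miR-18a-5p to hsa-miR-18b-5p is A20U and that from hsa-miR-19a-3p to hsa-miR-19b-3p is U11C, both outside the seed. The seed of miR-18 shares 6 of its 7 positions with that of miR-17, the change from miR-17 being A4G, and the mature hsa-miR-17-5p and hsa-miR-18a-5p differ at 6 of 23 positions. miR-18 and miR-19 share 1 of 7 seed positions, although the letters GUGC stand at positions 5 to 8 of the former and 2 to 5 of the latter. All 4 members are 23 nt long, so their counts per 1e6 counts (CPM) do not differ through length. How evenly different sequences were captured was not measured, so CPM of different miRNAs are not amounts that can be equated. The counts alone cannot show whether reads of a pair were assigned to the right member, and each pair is therefore also given as a sum.

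Input libraries held 3794799 to 5983577 counts, MS2 control libraries 1156261 to 2236535 and PD-L1 3'UTR libraries 672824 to 1237652. CPM are scaled by edgeR's TMM factors, and 3 counts, the limit that a count of 0 allows, were worth 0.676 to 4.02 CPM. This limit covers counting error only, since PCR reads without molecular identifiers are not independent molecules. PD-L1 3'UTR replicate 1 stood apart. The 10 listed miRNAs of blood cells, muscle, liver and neurons summed to 3428 CPM in it, against 570.3 to 688 CPM in the other PD-L1 3'UTR libraries, 409 to 538 in the MS2 control and 198 to 272 in the input. Epithelial miRNAs of the miR-200 family summed to 236 CPM in that library and to at most 78.2 CPM in the others. The sums hide unlike members. On the 3'UTR bait hsa-miR-200b-3p and hsa-miR-200a-3p reached 135 and 53.1 CPM, whereas hsa-miR-200c-3p stood at 26.1 to 42.5 CPM, against 36.5 to 48.9 in the input. hsa-miR-142-3p and hsa-miR-142-5p made up most of the input sum of the 10 (76.9 to 114 and 112 to 150 CPM). hsa-miR-1-3p, hsa-miR-451a and hsa-miR-206 reached 1433, 736 and 332 CPM on the 3'UTR bait. hsa-miR-133a-3p was at 0 in the input and the MS2 control, hsa-miR-124-3p in the input, hsa-miR-150-5p in the MS2 control and the epithelial hsa-miR-429 everywhere. Without that replicate the log2 fold changes over the MS2 control were 4.13 for hsa-miR-18a-5p, 7.14 for hsa-miR-18b-5p, 0.64 for hsa-miR-19a-3p and 2.13 for hsa-miR-19b-3p, all still past the threshold. Against the input they were 3.44, 4.55, 0.20 and 0.57, with no call changed. The part of these markers in the difference between MS2 control and input was not tested.

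hsa-miR-18a-5p gained more CPM on the PD-L1 3'UTR bait than any other member. It stood at 62.6, 60.3 and 63.5 CPM in input replicates 1 to 3 and at 42.7, 37.7 and 42.4 CPM in the MS2 control. In the PD-L1 3'UTR libraries it stood at 568, 683 and 715 CPM, from 803, 509 and 985 counts. Every library of the 3'UTR bait lay above all others. The order of input over MS2 control held with TMM scaling, whereas as shares of library totals those groups overlapped and the direction of their difference turned (0.024 on the log2 scale). Mean levels were 655 ± 76.9 CPM (SD, n = 3) on the 3'UTR bait, 62.2 ± 1.64 in the input and 40.9 ± 2.81 on the control bait. This made hsa-miR-18a-5p 16.0-fold more abundant on the 3'UTR bait than on the control bait and 10.5-fold more abundant than in the lysate. By edgeR's quasi-likelihood test with Benjamini-Hochberg adjustment over 408 miRNAs, the log2 fold change (± SE) was 4.003 ± 0.17 against the control bait (adjusted p = 1.47e-08) and 3.40 ± 0.17 against the lysate (adjusted p = 6.33e-08). By mean CPM it moved from place 180 in the input and 210 in the MS2 control to place 78 on the 3'UTR bait.

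hsa-miR-18b-5p, the chromosome X copy, was hardly present in the lysate. Its counts were 1, 0 and 2 in the input, 0 in each MS2 control library and 15, 6 and 10 on the 3'UTR bait. The latter corresponded to 10.6, 8.05 and 7.26 CPM, a mean of 8.64 ± 1.76 CPM (SD, n = 3), and every one lay above every library of the other groups. Set against 3 counts per MS2 control library, its mean level was at least 4.80-fold higher on the 3'UTR bait. Against the input, the pooled ratio of 31 to 3 counts was 32.7 after scaling (95% exact interval 10.2 to 167, counting error only). The edgeR test called it over both the MS2 control (adjusted p = 0.00106) and the input (adjusted p = 0.000959). Only its counts on the 3'UTR bait took it past the filter, so these calls are not independent of that selection. The fitted log2 value of 7.29 ± 1.27 over the MS2 control depends on the prior count and is no bound. Of all miR-18 counts, hsa-miR-18b-5p made up 3 of 702 in the input, 0.427% (95% exact interval 0.0882% to 1.24%). It made up 31 of 2328 on the 3'UTR bait, 1.33% (0.907% to 1.88%), and 0 of 217 on the control bait, which allows a share of up to 1.38% by the limit of 3 counts and 1.69% by the exact interval. These intervals overlap, and the difference in the split between miR-18a and miR-18b was not itself tested.

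**Figure D1:**
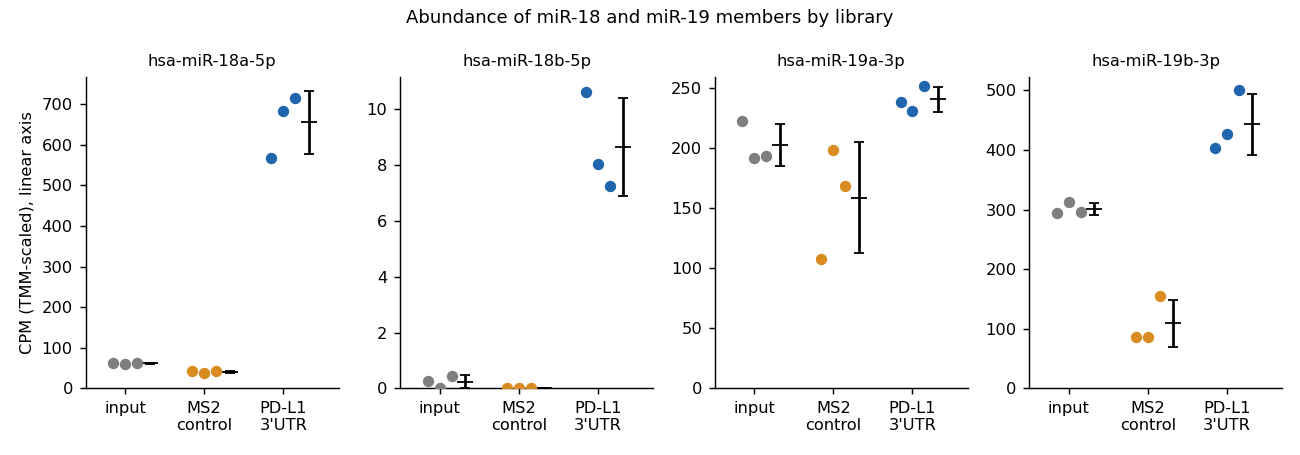
CPM of the 4 members (linear axes from 0, 1 panel per member) in the 3 libraries of each group, with points for libraries and bars for the mean ± SD. The PD-L1 3'UTR points of hsa-miR-18a-5p lie between 568 and 715 CPM, far above its other points, whereas those of hsa-miR-19a-3p lie between 231 and 252 CPM, just above its input points.

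hsa-miR-19a-3p had the smallest fold of the members over the control bait. Its level was 222.8, 191 and 194 CPM in the input, 108, 199 and 169 CPM on the control bait and 239, 231 and 252 CPM on the 3'UTR bait. The PD-L1 3'UTR libraries lay above all others, while input and MS2 control libraries overlapped, so the order of those neighbours was within their spread. Means were 240.4 ± 10.6, 203 ± 17.5 and 158 ± 46.2 CPM (SD, n = 3) for PD-L1 3'UTR, input and MS2 control. Levels were thus 1.52-fold those on the control bait, with a log2 fold change of 0.60 ± 0.22 (edgeR adjusted p = 0.0348). Against the input the log2 fold change was 0.25 ± 0.22 (edgeR adjusted p = 0.332), whereas with library totals it was 0.82 and passed the threshold (adjusted p = 0.00391). The call over the MS2 control lay near the threshold and was lost in most fits that left out a library. It was lost without input replicate 1, 2 or 3 (0.57, 0.48 and 0.58), without MS2 control replicate 1 or 3 (0.39 and 0.61) and without PD-L1 3'UTR replicate 2 or 3 (0.61 and 0.57), with adjusted p from 0.0560 to 0.108.

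hsa-miR-19b-3p, which differs from hsa-miR-19a-3p by 1 base, was depleted on the control bait and not on the 3'UTR bait. It stood at 294, 313 and 296 CPM in the input, 86.6, 86.4 and 155 CPM on the control bait and 403, 427 and 501 CPM on the 3'UTR bait. The 3 groups did not overlap. Its mean of 443 ± 51.0 CPM (SD, n = 3) was 4.05-fold that of the MS2 control (109 ± 39.6) and 1.47-fold that of the input (301 ± 10.4). The log2 fold change over the MS2 control was 2.02 ± 0.24 (edgeR adjusted p = 2.97e-05). Over the input it was 0.56 ± 0.23 (edgeR adjusted p = 0.0512) and did not pass the threshold of 0.05, whereas with library totals as the scaling it was 1.13 and did pass (adjusted p = 0.00114). Across all alternatives that adjusted p ranged from 0.00114 to 0.461.

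The mature hsa-miR-19b-3p is identical at its loci, and the deposited counts split almost evenly between them. Chromosome 13 and chromosome X received 533 and 585 counts in input replicate 1, 64 and 70 in MS2 control replicate 1 and 296 and 273 in PD-L1 3'UTR replicate 1. The chromosome 13 share ran from 46.8% to 54.1% over the 9 libraries, and 50% lay within the exact 95% interval of each. Such counts cannot tell which transcript the reads came from. With each locus as a row of its own, the log2 fold change over the input was 0.60 for the chromosome 13 row (edgeR adjusted p = 0.0376) and 0.37 for the chromosome X row (adjusted p = 0.226).

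**Figure D2:**
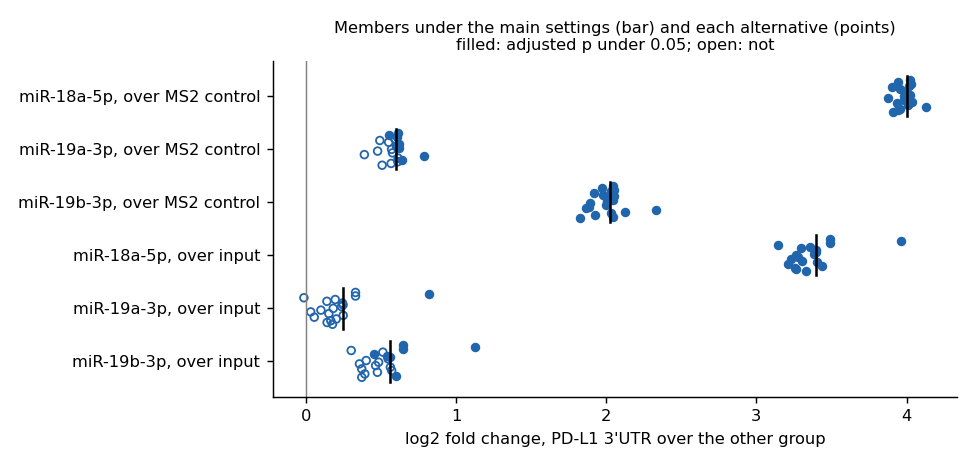
Log2 fold change of hsa-miR-18a-5p, hsa-miR-19a-3p and hsa-miR-19b-3p on the PD-L1 3'UTR bait over MS2 control and input, as reported (bar) and under each alternative (points, filled where the adjusted p is under 0.05). The values of hsa-miR-18a-5p stay between 3.14 and 4.13 and filled, whereas those of hsa-miR-19a-3p over the input lie between -0.014 and 0.82 and are filled only with library totals.

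In counts of members, 4 of 4 were higher on the 3'UTR bait than on the MS2 control and 0 were lower, where 31.4% of all 408 tested miRNAs were called higher and 28.7% lower. Over the input, 2 of 4 were higher (both miR-18 members) and 0 were lower, where 34.1% of all tested were called higher and 32.4% lower. From input to MS2 control, 0 of 4 were higher and 2 were lower (hsa-miR-18a-5p and hsa-miR-19b-3p), where 32.8% were called higher and 37% lower. The members called higher on the 3'UTR bait include hsa-miR-18b-5p, which passed the filter only through the libraries of that bait. Calls of this kind were thus common in the whole table, and the sizes place the members better than the calls do. Among 408 log2 fold changes over the MS2 control, hsa-miR-18a-5p was at place 32, hsa-miR-19b-3p at 73 and hsa-miR-19a-3p at 150, with a median over all of 0.02. Over the input the places were 49, 151 and 182 in the same order, with a median over all of 0.04. hsa-miR-18b-5p is given no place, since counts of 0 leave its fitted value to the prior count. These comparisons share libraries and are not independent of one another.

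The lower level on the control bait than in the lysate depended on the scaling. hsa-miR-19b-3p fell by 1.47 on the log2 scale, a 2.75-fold lower mean (edgeR adjusted p = 0.000274), and remained lower with library totals (-0.84, adjusted p = 0.00611). For hsa-miR-18a-5p the log2 change was -0.61 ± 0.16 with TMM (edgeR adjusted p = 0.00584), but with library totals the direction turned to 0.024 (adjusted p = 0.897). hsa-miR-19a-3p had -0.35 ± 0.22 with TMM (edgeR adjusted p = 0.167) and, with the direction again turned, 0.26 with library totals. Library totals moved the median of all miRNAs by 0.63 in this comparison and by 0.57 for PD-L1 3'UTR against input. Relative to the median of all miRNAs, the change of hsa-miR-18a-5p from input to MS2 control was -0.63 with either scaling. The split of calls in the whole table moved as well, from 134 higher and 151 lower to 199 and 104 for MS2 control against input, and from 139 and 132 to 192 and 89 for PD-L1 3'UTR against input. hsa-miR-18b-5p was at or under 3 counts in all these libraries and is given no fold.

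Summed by seed, miR-18 stood at 62.4 ± 1.86 CPM in the lysate, 40.9 ± 2.81 on the control bait and 664 ± 75.1 on the 3'UTR bait (SD, n = 3). miR-19 stood at 504 ± 13.4, 268 ± 66.3 and 684 ± 60.0 CPM in the same groups. The family with the lower CPM in the lysate had therefore reached about the CPM of the other on the 3'UTR bait. The sums rose over the MS2 control by a log2 of 4.02 for miR-18 (edgeR adjusted p = 1.35e-08) and 1.35 for miR-19 (adjusted p = 0.000122). Over the input the values were 3.41 (adjusted p = 5.84e-08) and 0.44 (adjusted p = 0.0598), the latter being 1.01 and past the threshold with library totals (adjusted p = 0.000424). From input to MS2 control they were -0.61 (adjusted p = 0.00536) and -0.91 (adjusted p = 0.00147), and with library totals 0.019, a turned direction, and -0.29 (adjusted p = 0.924 and 0.138).

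Ratios of counts within a library do not depend on the scaling. The log2 ratio of miR-18 to miR-19 was -3.01 ± 0.07 in the input, -2.67 ± 0.43 on the control bait and -0.045 ± 0.11 on the 3'UTR bait (SD, n = 3). On the 3'UTR bait it was higher by 2.63 ± 0.25 (SE) than on the control bait and by 2.97 ± 0.07 than in the lysate, with no overlap of libraries. The ratio of hsa-miR-19a-3p to hsa-miR-19b-3p was -0.57 ± 0.16 in the input, 0.55 ± 0.57 in the MS2 control and -0.88 ± 0.12 on the 3'UTR bait. The counts of this pair, which differs by a single base outside the seed, were split differently in the MS2 control libraries. There hsa-miR-19b-3p made up 44.5%, 30.3% and 47.9% of miR-19 counts. Its share was 56.9% to 62.1% in the input and 62.8% to 66.5% on the 3'UTR bait. Whether the reads were assigned to the right member was not tested. With 3 libraries against 3 the exact two-sided permutation test cannot go below p = 0.10. It gave that value in 14 of 15 tests of 5 ratios (adjusted p = 0.107) and 0.70 for hsa-miR-18a-5p to hsa-miR-18b-5p between MS2 control and input. The remaining ratios of that pair moved with the number added to counts of 0, and no order is read from them.

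**Figure D3:**
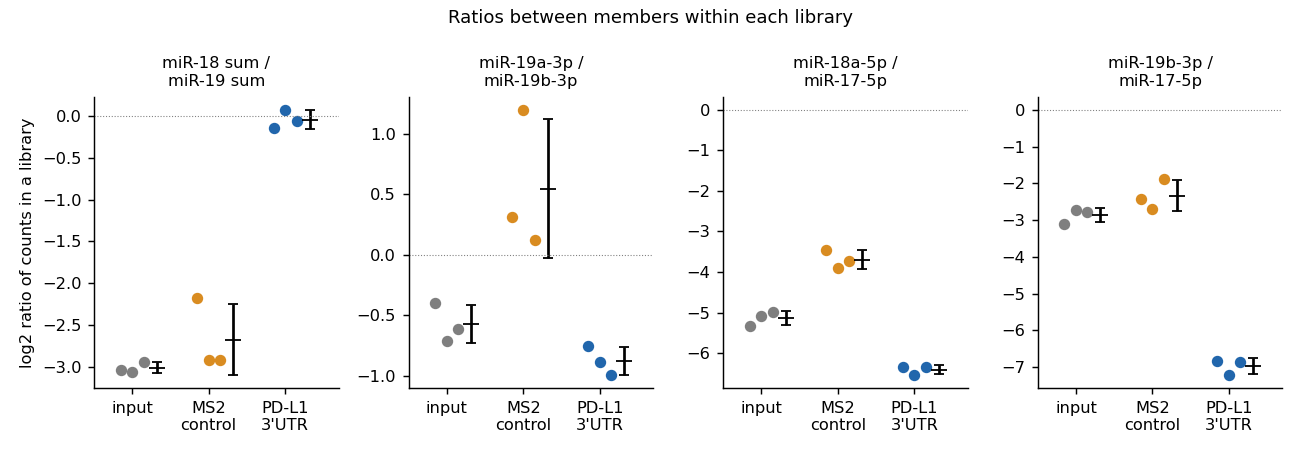
Log2 ratio of counts within each library (points, 0.5 added to each count; bars, mean ± SD of 3) for 4 pairs of miRNAs in the input, MS2 control and PD-L1 3'UTR groups. The ratio of miR-18 to miR-19 is close to 0 on the 3'UTR bait and between -3.06 and -2.18 elsewhere, whereas both ratios to hsa-miR-17-5p are lowest on the 3'UTR bait.

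Within the miR-17-92 transcript, the members had smaller fold changes over the MS2 control than the strands with the miR-17 seed, whereas over the input the 3.40 of hsa-miR-18a-5p exceeded the value of hsa-miR-20a-5p. hsa-miR-17-5p differed by a log2 of 6.71 ± 0.19 from the control bait and 4.67 ± 0.17 from the lysate, and hsa-miR-20a-5p, with the same seed, had 6.15 ± 0.21 and 2.49 ± 0.18. At the other end, hsa-miR-92a-3p had 0.80 ± 0.13 and -0.63 ± 0.13 in the same comparisons. hsa-miR-18a-5p lay between these over the MS2 control, while hsa-miR-19a-3p and hsa-miR-92a-3p differed there by less than the SE of the former. Within libraries, the log2 ratio of hsa-miR-18a-5p to hsa-miR-17-5p was -5.14 ± 0.17 in the input, -3.70 ± 0.23 on the control bait and -6.41 ± 0.12 on the 3'UTR bait. That of hsa-miR-19b-3p to hsa-miR-17-5p was -2.86 ± 0.20, -2.34 ± 0.42 and -6.97 ± 0.21. Relative to miR-17, then, both members were lower on the 3'UTR bait than in the lysate, by 1.28 ± 0.12 (SE) and 4.11 ± 0.17 on the log2 scale.

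Of the counts of the 6 guide strands of this transcript, hsa-miR-18a-5p made up 0.0870% ± 0.00871 in the input, 0.173% ± 0.0177 on the control bait and 0.437% ± 0.0262 on the 3'UTR bait (SD, n = 3). hsa-miR-19a-3p went from 0.285% ± 0.0526 in the input to 0.162% ± 0.0252 on the 3'UTR bait and stood at 0.676% ± 0.217 on the control bait. hsa-miR-19b-3p went from 0.422% ± 0.0410 to 0.297% ± 0.0370 and stood at 0.470% ± 0.203 on the control bait. Each of these members thus made up under 1% of the cluster in every library. The shares of hsa-miR-19b-3p and hsa-miR-92a-3p also hold the counts of their identical copies on chromosome X. The shift lay in the abundant strands. From input to 3'UTR bait, hsa-miR-17-5p went from 3.10% to 37.2%, hsa-miR-20a-5p from 13.4% to 36.2% and hsa-miR-92a-3p from 82.7% to 25.7%. Shares of a fixed total can fall where other strands rise. The mean CPM of hsa-miR-19a-3p and hsa-miR-19b-3p were not lower on the 3'UTR bait than in the input.

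**Figure D4:**
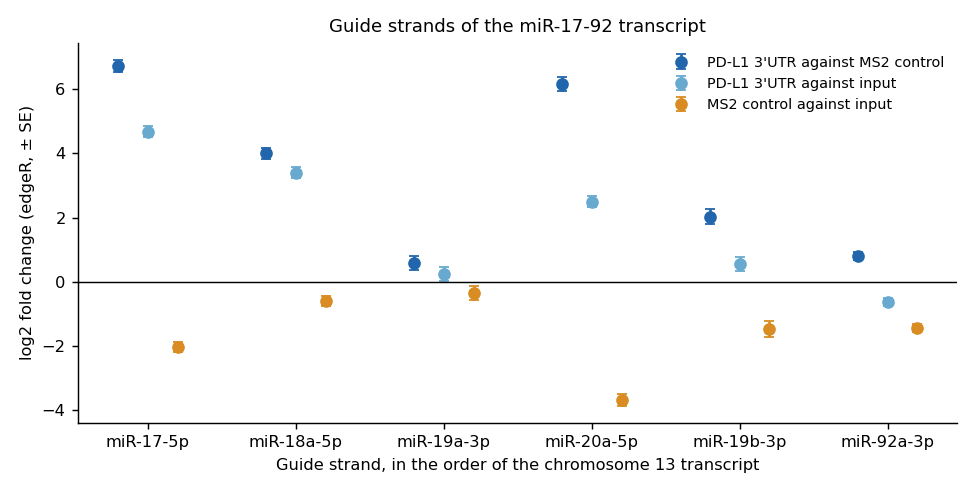
Log2 fold change ± SE (edgeR, 9 libraries in 1 model) of the 6 guide strands of the miR-17-92 transcript, in transcript order, for the 3 comparisons. hsa-miR-18a-5p lies at 4.003 and 3.40 against MS2 control and input, below hsa-miR-17-5p at 6.71 and 4.67. For MS2 control against input, hsa-miR-18a-5p and hsa-miR-19a-3p lie at -0.61 and -0.35. With library totals, which are not drawn, these turn to 0.024 and 0.26.

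The partner strands, which are cut from the other arm of the same hairpins and are mostly discarded, were scarce apart from hsa-miR-18a-3p. That strand stood at 92.9, 94.7 and 103 CPM in the input, 40.1, 26.6 and 31.0 CPM in the MS2 control and 63.7, 79.2 and 75.5 CPM on the 3'UTR bait. It was above its guide hsa-miR-18a-5p in each input library and far below it in each PD-L1 3'UTR library. Its log2 fold change was 1.16 ± 0.23 over the MS2 control (edgeR adjusted p = 0.00108) and -0.42 ± 0.22 against the input (adjusted p = 0.113). hsa-miR-19b-1-5p had 3 to 31 counts per library and log2 differences of 0.70 ± 0.66 from the control bait and 0.05 ± 0.60 from the lysate, neither past the threshold (adjusted p = 0.376 and 0.951). The other partner strands did not pass the filter, with 5, 7 and 0 counts in all 9 libraries for hsa-miR-18b-3p, hsa-miR-19a-5p and hsa-miR-19b-2-5p. Of the 2 partner strands tested of 5 listed, 1 was therefore higher than in the MS2 control and 0 were higher than in the input, with 1 lower from input to MS2 control, beside 31.4%, 34.1% and 37% of all tested miRNAs called in those directions.

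Other products of the same and related transcripts give the setting. Of the 6 other products of miR-17-92, 5 were higher and 1 lower over the MS2 control (median log2 2.97 beside 0.02 for all tested), and 4 were higher and 2 lower against the input (median 1.56 beside 0.04). hsa-miR-92a-1-5p was the one lower in both, at -3.34 and -1.95. From input to MS2 control, 1 was higher and 4 were lower. Of 8 other products of the chromosome X transcript, 3 could be tested, and all of these were higher over the MS2 control (median 5.64). Among them hsa-miR-92a-3p has the same mature sequence in both transcripts and is also counted among the products of miR-17-92. Against the input, hsa-miR-106a-5p and hsa-miR-20b-5p, which carry the miR-17 seed, had 5.14 ± 0.20 and 2.73 ± 0.38, whereas hsa-miR-92a-3p was lower. hsa-miR-363-3p had 27 counts in all 9 libraries and was not tested. In the input, these miR-17 seed strands of the transcript to which hsa-miR-18b-5p is annotated had 383 and 221 counts, against 3 for hsa-miR-18b-5p. Their levels there were 34.7 ± 5.82 CPM for hsa-miR-106a-5p and 19.4 ± 4.56 CPM for hsa-miR-20b-5p (SD, n = 3). Whether the reads counted as hsa-miR-18b-5p came from that transcript was not tested. The miR-106b-25 transcript, a paralogue without a miR-18 or miR-19 copy, had 6 products tested. Of these, 2 were higher and 2 lower over the MS2 control (median -0.22) and 2 higher and 0 lower over the input (median 0.43). Of all 408 tested miRNAs, 31.4% were called higher and 28.7% lower over the MS2 control. The shares were 34.1% and 32.4% against the input, and 32.8% and 37% from input to MS2 control. The miR-106b-25 counts over the MS2 control were thus near the shares of all tested.

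The level of the members over the 9 libraries was compared with that of 404 other miRNAs, by the root mean square difference of their centred log2 CPM. For hsa-miR-18a-5p the nearest were hsa-miR-589-3p (0.35), hsa-miR-130b-3p (0.39) and hsa-miR-31-5p (0.40), beside a median of 2.01 over all compared. hsa-miR-18b-5p and hsa-miR-589-3p were at 0 in the MS2 control, so their distances depend on the number added to counts of 0. For that reason no nearest profiles are given for hsa-miR-18b-5p. hsa-miR-31-5p, for example, had mean levels of 624, 447 and 4133 CPM in input, MS2 control and PD-L1 3'UTR. Nearest to hsa-miR-19a-3p were hsa-miR-96-5p (0.17), hsa-miR-182-5p (0.23) and hsa-miR-224-5p (0.24), and nearest to hsa-miR-19b-3p were hsa-miR-138-5p (0.21), hsa-miR-181a-5p (0.23) and hsa-miR-30a-5p (0.33). Between members the difference was 0.67 for hsa-miR-19a-3p and hsa-miR-19b-3p, against 1.55 and 1.20 for hsa-miR-18a-5p and each of these. All these profiles share libraries and scaling, and the measure is a description.

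Words that pair with the seeds were sought on the sense strand of the 3'UTR of CD274, in 2692 bases of the reference transcript CD274-202, and in 4577 other 3'UTRs cut to that length. How far the bait covers this 3'UTR was not analysed here. For miR-18, the 7mer GCACCTT, the 7mer CACCTTA and the 8mer GCACCTTA, which holds both, had 0 matches, while 14.2%, 12.4% and 2.60% of the other 3'UTRs hold them. The 6mer CACCTT, part of all these words, had 1 match at bases 690 to 695, and 54.8% of other 3'UTRs hold it. With 1 G:U pair allowed in the 7mer, GCACTTT had 1 match, GCATCTT had 0, GCGCCTT had 0 and GTACCTT had 2, and 55.7% of others hold at least 1 of these words. The match of GCACTTT at bases 2496 to 2502 lies inside the only 8mer of the miR-17 seed, GCACTTTA at bases 2496 to 2503, an 8mer that 7.36% of others hold. For miR-19, the 6mer TTGCAC, the 7mers TTTGCAC and TTGCACA and the 8mer TTTGCACA had 0 matches, against 48.2%, 21.7%, 21.1% and 9.59% of others. With 1 G:U pair, TTTGCAT had 0 matches, TTTGCGC had 0 and TTTGTAC had 3, which start at bases 2352, 2366 and 2578, and 48.2% of others hold at least 1 of these words. The windows below show the 6mer of miR-18, the word that miR-18 shares with miR-17 when a G:U pair is allowed, and the first of the miR-19 matches, with the matched word in capitals.
CD274 3'UTR, miR-18 6mer: gcataggatgtCACCTTtatttaaccca
CD274 3'UTR, miR-17 8mer and miR-18 G:U word: ggatttgtaagGCACTTTAtcccttttgtc
CD274 3'UTR, miR-19 G:U word: tgtgttatctgTTTGTACatgtgcatttg
These matches are descriptions of letters and not of binding, and the words beside 0 are only not in this reference sequence.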

How the data were processed

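The 9 small RNA libraries of ES-2 cells, 3 per group, were grouped by sample titles. The deposited values are raw counts per mature miRNA locus. The authors trimmed with cutadapt 1.18, aligned with Bowtie2 2.2.6 (build hg38 per the labels) and counted miRBase miRNAs with featureCounts 1.6.3. Loci of a name were summed.

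Counts were tested with edgeR 4.0.16 in R 4.3.3 (filterByExpr, TMM, glmQLFit and glmQLFTest, two-sided, Benjamini-Hochberg over 408 miRNAs, threshold 0.05). The 9 libraries were fitted in 1 model with 3 group means, with a common biological coefficient of variation of 31.1%. The SE is the log2 fold change over the square root of F. Ratios within libraries (0.5 added to counts) had an exact permutation test (scipy 1.17.1). Alternatives were other scalings, filters and tools (DESeq2 1.42.0 among them), a replicate block, separate loci and leaving out each library. The edgeR steps were tested on simulated data, and replicates within a group all differed beyond sampling noise.

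Named miRNAs are the members, their partner strands, the guide strands of both transcripts and the 3 nearest profiles per member (not given for hsa-miR-18b-5p). Members and lists were chosen with earlier results of these data known. hsa-miR-92a-1-5p and the single marker miRNAs were named after values were seen. Seed words were sought in GENCODE transcripts.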

Additional observations from a re-analysis of the deposited data

How the results depend on the processing

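Of 276 alternative values that had a test, 251 kept their direction and their side of the threshold. hsa-miR-18a-5p and hsa-miR-18b-5p did so over both references under every alternative that gave a value, as did hsa-miR-19b-3p over the MS2 control. A mean of at least 10 CPM removed hsa-miR-18b-5p and lost the call of hsa-miR-19a-3p over the MS2 control. It left 2 members higher than on the control bait and 1 higher than in the lysate, where 111 and 117 of all miRNAs were called higher. With library totals, 4 members were higher over the input and 1 lower from input to MS2 control. In those directions 192 and 104 of all 408 tested miRNAs were called, so the count of 4 is not particular to the members. In PD-L1 3'UTR against input, library totals gave 0.82 for hsa-miR-19a-3p, 1.13 for hsa-miR-19b-3p and 1.01 for the miR-19 sum, all past the threshold. From input to MS2 control they gave 0.024 for hsa-miR-18a-5p, 0.26 for hsa-miR-19a-3p, 0.019 for the miR-18 sum and -0.29 for the miR-19 sum, none past it.

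hsa-miR-19a-3p over the MS2 control missed the threshold with only the groups compared (0.55), no filter (0.59), separate loci (0.51) and a mean of at least 10 CPM (0.49), and ranged from 0.39 to 0.79 without each library in turn; its adjusted p ran from 0.0158 to 0.114. Over the input it was -0.014 with no filter. hsa-miR-19b-3p over the input passed with DESeq2's size factors (0.64), DESeq2 (0.64), only the groups compared (0.45), robust empirical Bayes (0.56) and the chromosome 13 locus alone (0.60). The ratio of hsa-miR-18a-5p to hsa-miR-18b-5p between baits was -0.97, and -0.053 with 1 added to each count; between MS2 control and input it ranged from -0.75 to 0.084 without each library in turn. With no filter, 201 miRNAs in place of 132 were lower on the 3'UTR bait than in the input. The causes were not tested.

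Same-numbered samples did not deviate together (correlations from -0.18 to 0.13 over 9 pairs). The labels do not say whether the numbers pair samples, and a check on 3 libraries per group cannot exclude it. With a replicate block, hsa-miR-19b-3p over the input was 0.54 (adjusted p = 0.0444), and no other call of a member changed. TMM without the miR-17 seed, added after seeing the data, changed no call. DESeq2 gave no adjusted p for 4 miRNAs per comparison. The 31 counts of hsa-miR-18b-5p limit its precision.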
